A study of Mus musculus with 12 samples.

Results

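The synaptonemal complex and the HORMA-domain proteins of the meiotic axis were followed through 8 genes, *Sycp1*, *Sycp2*, *Sycp3*, *Syce1*, *Syce2*, *Tex12*, *Hormad1* and *Hormad2*, in mouse gonads at E14.5. The genes were found by their names on the array, and all 8 were among the 18853 genes that passed the filter on dim probes, of 29182 genes named on it. RNA had been measured on 12 single-colour Agilent arrays, 3 for each of 4 groups, and each array carried the RNA of 1 pair of gonads. The study asked whether SMAD4, the shared mediator of BMP, activin and TGF-beta signals, and STRA8, the retinoic acid target that starts meiosis, together set the female fate of germ cells. The Cre recombinase was driven by the element of *Stella*, a germ cell gene, in the form MerCreMer that needs tamoxifen, and tamoxifen was given to the mothers at E9.5 and E10.5.

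Every group carried at least 1 mutant *Stra8* allele, and the mice were of a mixed background. The 3 control testes were Smad4Flox/+ StellaMerCreMer Stra8+/-. Of the control ovaries, number 1 had that same genotype, number 2 was Smad4Flox/+ Stra8+/- without Cre, and number 3 was Smad4Flox/Flox Stra8+/- without Cre. The 3 *Smad4 (Stella)* ovaries were Smad4flox/floxMerCreMer Stra8+/−, and the 3 double mutant (DKO) ovaries were Smad4flox/floxMerCreMer Stra8−/−. A group lacking *Stra8* alone was not analysed here, so a change in DKO ovaries cannot be divided between the 2 genes beyond the step from *Smad4 (Stella)* to DKO ovaries. The study described the activity of this Cre as variable, so that a mutant ovary may hold germ cells that kept *Smad4*. Whole gonads were used, and fewer germ cells and less RNA per germ cell cannot be told apart.

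In meiotic prophase each pair of sister chromatids is folded along a protein axis, and the axes of paired chromosomes are then joined along their length by the synaptonemal complex. SYCP2 and SYCP3 build the axial, later lateral, element. SYCP1 forms the transverse filaments that bridge the lateral elements, and SYCE1, SYCE2 and TEX12 belong to the central element in which those filaments meet. HORMAD1 and HORMAD2 sit on axes that are not yet synapsed, where HORMAD1 is needed for normal break formation and pairing. Female germ cells of the mouse enter meiosis in the fetal ovary, whereas male germ cells of the same age stop dividing and enter meiosis only after birth.

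Each gene was read by 60-base probes, and the following ones are shown because they define what was measured. Those of *Sycp1*, *Sycp2* and *Sycp3* and the second of *Hormad1* lie across an exon junction, since their interval on mm9 is longer than the probe. They correspond to chr3:102657397-102658068 on the minus strand, chr2:178114228-178115592 on the minus strand, chr10:87932348-87935438 on the plus strand and chr3:95389116-95389495 on the plus strand. The first *Hormad1* probe, at chr3:95384095-95384154 on the plus strand, is given because its response differed in size from that of the second. No base is marked by capitals.
Sycp1: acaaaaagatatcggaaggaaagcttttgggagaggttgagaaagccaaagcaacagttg
Sycp2: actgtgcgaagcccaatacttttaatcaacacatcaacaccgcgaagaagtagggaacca
Sycp3: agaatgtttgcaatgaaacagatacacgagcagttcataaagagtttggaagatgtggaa
Hormad1, first probe: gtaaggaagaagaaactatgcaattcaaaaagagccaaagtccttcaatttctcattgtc
Hormad1, second probe: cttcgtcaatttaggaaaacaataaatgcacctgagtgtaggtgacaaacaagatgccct

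Of 13 probes for the 8 genes, 12 were kept. The one left out, named for *Tex12* but on the opposite strand, lay at chr9:50370827-50370886 and stayed at background on all 12 arrays. The remaining positions on mm9 were chr2:178080000-178080053 and chr2:178080235-178080294 for *Sycp2*, chr7:147963253-147963312 for *Syce1*, chr8:87411133-87411192 for *Syce2*, chr9:50365427-50365486 and chr9:50365525-50365584 for *Tex12*, and chr11:4246163-4246222 for *Hormad2*, with *Syce2* on the plus strand and the others on the minus strand. All 8 genes were above background on all 12 arrays, and no spot was saturated.

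A level is given as log2 of the processed intensity minus the 75th percentile of its array, so that 0 is the 75th percentile, and levels of different genes are not set against each other. Between 58.8% and 70.6% of probes were well above background per array, the lowest being control ovary 1. Slide 1 held the 3 testes and control ovary 1, slide 2 control ovaries 2 and 3 with DKO ovaries 1 and 2, and slide 3 the *Smad4 (Stella)* ovaries with DKO ovary 3. *Smad4 (Stella)* and control ovaries thus shared no slide, and neither did DKO ovaries and testes. Differences were tested with limma in 1 model of all arrays, p-values were adjusted over all genes tested, and the word called marks genes that changed at least 1.5-fold with an adjusted p under 0.05. Comparisons with control ovaries share the same 3 control arrays, and those with DKO ovaries the same 3 DKO arrays, so they are not independent of each other.

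The mean level of *Stra8* itself was 6.44 ± 0.27 in control, 6.34 ± 0.07 in *Smad4 (Stella)* and 5.43 ± 0.17 in DKO ovaries, and -2.62 ± 0.34 in testes (SD, n = 3 each). The DKO level lay below that of control ovaries (log2 fold change -1.02, adjusted p = 0.0027 from limma). Where the probe lies relative to the deleted part is not given in the sources used here, so this signal does not test the deletion. *Smad4* differed by -0.04 between *Smad4 (Stella)* and control ovaries (adjusted p = 0.91 from limma). Between DKO and control ovaries it differed by -0.13 (adjusted p = 0.563 from limma). The somatic cells of these gonads keep the gene, so these values do not test the deletion in germ cells either.

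**Figure D1:**
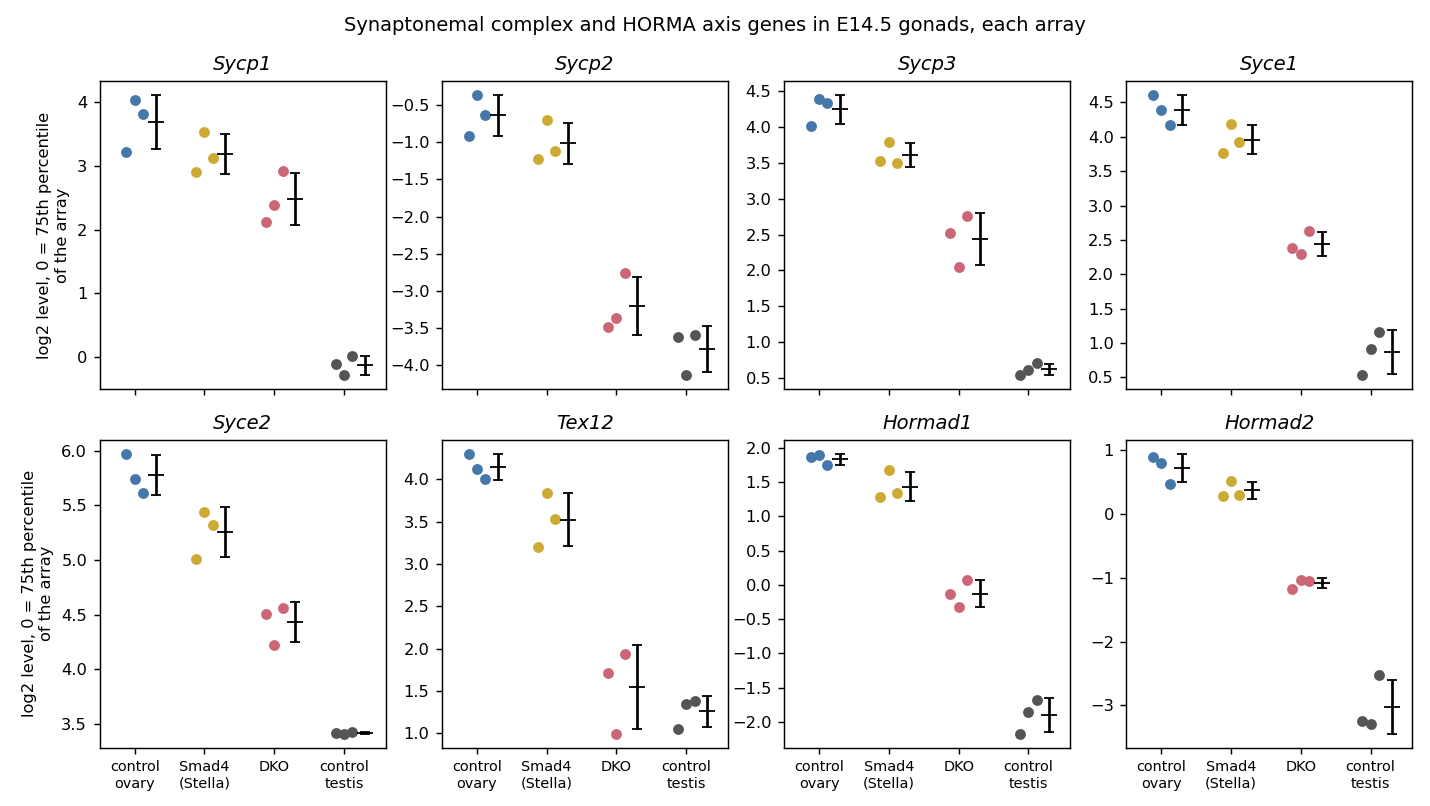
Levels of the 8 genes on each of the 12 arrays (log2 scale, 0 is the 75th percentile of the array), with points in the order of replicates 1 to 3 and bars giving the mean ± SD of each group; the vertical scale differs between panels. The group means run in the order control ovary, *Smad4 (Stella)* ovary, DKO ovary and control testis for every gene, and the DKO and testis points interleave for *Tex12*.

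The 8 genes were lower in DKO ovaries than in control ovaries, all of them past the test. In *Smad4 (Stella)* ovaries none passed, but only 0.138% of all genes were called lower there, so a count of 0 lies near that share. The means of all 8 were below those of control ovaries there too, with a median change of -0.47 against -0.03 over all genes. Among all genes tested, 7.99% were called lower in DKO against control ovaries, so 8 of 8 lay far above that share. The log2 fold changes ranged from -1.21 (*Sycp1*) to -2.60 (*Tex12*), with a median of -1.88 against 0.003 over all genes. DKO and control arrays stood apart for each of the 8, as they did for 32.9% of all genes in either direction. In control testes, too, all 8 were called lower than in control ovaries, where 16.8% of genes were, and the median change was -3.57. Ovary and testis arrays stood apart for all 8, and for 58.4% of all genes. DKO ovaries were called above testes for 6 of the genes, all but *Sycp2* and *Tex12*, where 12.7% of all genes were called higher.

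**Figure D2:**
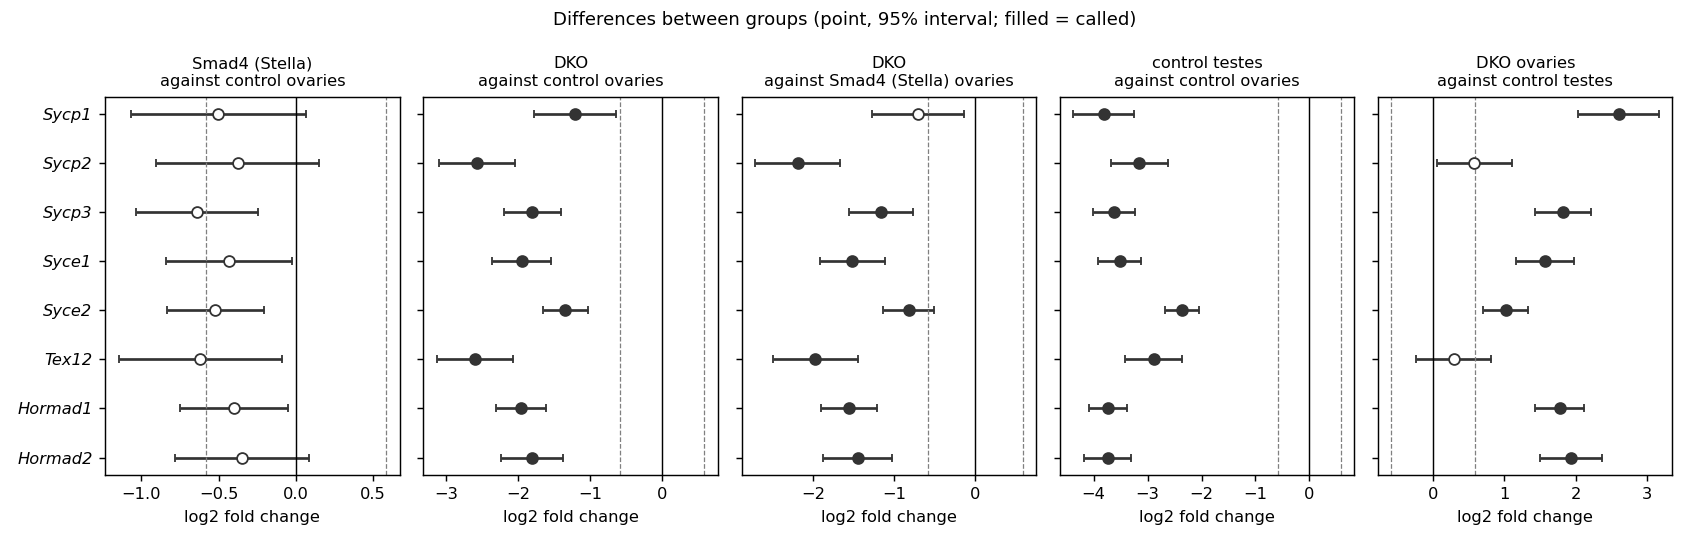
Differences between groups for the 8 genes, as log2 fold change from limma with its 95% interval; filled points passed an adjusted p under 0.05 and a 1.5-fold change (dashed lines), and the horizontal scale differs between panels. No point is filled for *Smad4 (Stella)* against control ovaries, 8 are filled for DKO against control ovaries, 7 for DKO against *Smad4 (Stella)* ovaries, 8 for testes against control ovaries and 6 for DKO ovaries against testes.

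Of the axial element genes, *Sycp3* stood at 4.02, 4.39 and 4.34 on the control ovary arrays, numbered 1 to 3, and at 3.52, 3.80 and 3.50 on the *Smad4 (Stella)* arrays. The DKO arrays gave 2.52, 2.05 and 2.76 and the testis arrays 0.55, 0.61 and 0.71. The 4 groups did not overlap. *Sycp3* fell in DKO against control ovaries (log2 fold change -1.80, SE 0.18, adjusted p = 8.69e-05 from limma) and in DKO against *Smad4 (Stella)* ovaries (-1.16, adjusted p = 0.00256 from limma). It remained 3.53-fold above the testis level (adjusted p = 2.98e-05 from limma).

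*Sycp2*, whose protein partners SYCP3 in the axis, stood at -0.92, -0.37 and -0.63 on the control ovary arrays and at -1.22, -0.70 and -1.12 on the *Smad4 (Stella)* arrays, which overlapped. The DKO arrays gave -3.50, -3.37 and -2.76 and the testis arrays -3.62, -4.14 and -3.61. The fall against control ovaries was 5.95-fold (log2 fold change -2.57, SE 0.24, adjusted p = 5.8e-05 from limma). Under normexp, another background correction, it was -1.30 and was not called (adjusted p = 0.104 from limma). The DKO arrays lay above all testis arrays, yet the difference of 0.58 (95% interval 0.05 to 1.11) did not pass (adjusted p = 0.0799 from limma). Its 3 probes changed by -2.70, -2.20 and -2.83 in DKO against control ovaries. The probe with the smallest of these was dim, being above background on 2 of 3 DKO and 1 of 3 testis arrays.

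*Sycp1*, the gene of the transverse filament, had the smallest fall of the 8 in DKO ovaries and the largest excess over testes. The control ovary arrays gave 3.22, 4.03 and 3.82, the lowest being the array on slide 1, and the *Smad4 (Stella)* arrays 2.90, 3.53 and 3.12. The DKO arrays gave 2.12, 2.38 and 2.92 and the testis arrays -0.11, -0.28 and 0.02. DKO arrays were below all control arrays (log2 fold change -1.21, SE 0.26, adjusted p = 0.00678 from limma). That call did not hold without scaling between arrays (-1.03, adjusted p = 0.123 from limma), with normexp correction (-1.29, adjusted p = 0.0563 from limma), or under the methods' t-test after Benjamini-Hochberg adjustment (adjusted p = 0.133).

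DKO and *Smad4 (Stella)* arrays overlapped for *Sycp1*, through DKO ovary 3, and their difference of -0.71 (95% interval -1.28 to -0.14) was not called (adjusted p = 0.103 from limma). Without DKO ovary 3 it was -0.93 and was called (adjusted p = 0.0391 from limma). On slide 3, where DKO ovary 3 stood beside the *Smad4 (Stella)* ovaries, the difference was -0.26. Against testes, DKO ovaries were 6.07-fold higher (log2 fold change 2.60, SE 0.26, adjusted p = 3.06e-05 from limma). Against control ovaries, the testes were 14.1-fold lower.

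Among the central element genes, *Tex12* fell the most. The control ovary arrays gave 4.31, 4.13 and 4.001 and the *Smad4 (Stella)* arrays 3.21, 3.84 and 3.53, without overlap. The DKO arrays gave 1.71, 0.99 and 1.94 and the testis arrays 1.05, 1.34 and 1.39, with the lowest DKO array below all of the testes. Against control ovaries it changed by -2.60 on the log2 scale (SE 0.24, adjusted p = 5.57e-05 from limma), and its 2 probes gave -2.59 and -2.60. DKO ovaries differed from testes by 0.29 (95% interval -0.24 to 0.81, adjusted p = 0.378 from limma), an interval that leaves room for a difference of up to 1.76-fold.

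*Syce1*, another central element gene, stood at 4.61, 4.39 and 4.17 on control ovary arrays, 3.76, 4.18 and 3.93 on *Smad4 (Stella)* arrays, 2.39, 2.30 and 2.63 on DKO arrays and 0.53, 0.92 and 1.16 on testis arrays. The highest *Smad4 (Stella)* array lay just above the lowest control array, while DKO and testis arrays stood apart from them and from each other. It fell 3.87-fold in DKO against control ovaries (adjusted p = 6.4e-05 from limma) and was 2.97-fold above testes (adjusted p = 0.000101 from limma). *Syce2* stood at 5.97, 5.74 and 5.62 on control ovary arrays, 5.01, 5.44 and 5.32 on *Smad4 (Stella)* arrays, 4.51, 4.22 and 4.56 on DKO arrays and 3.41, 3.41 and 3.42 on testis arrays. No groups overlapped for *Syce2*, and its falls were the smallest of the 3 central element genes, 2.54-fold in DKO (adjusted p = 0.000126 from limma) and 5.14-fold in testes (adjusted p = 6.73e-07 from limma). The intervals of the DKO fall of *Syce2* (-1.66 to -1.03) and of *Tex12* (-3.13 to -2.07) did not overlap, but they leave out differences in probe response.

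Of the HORMA genes, *Hormad1* stood at 1.87, 1.89 and 1.74 on the control ovary arrays and at 1.28, 1.67 and 1.35 on the *Smad4 (Stella)* arrays. The DKO arrays gave -0.13, -0.33 and 0.08 and the testis arrays -2.17, -1.85 and -1.68, and no groups overlapped. It had the smallest adjusted p of the 8 genes in DKO against control ovaries, where it changed by -1.96 on the log2 scale (SE 0.16, adjusted p = 2.63e-05 from limma). The first probe printed above changed by -1.48 and the second by -2.44. Both fell, and the size given for the gene is their mean.

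*Hormad2* stood at 0.90, 0.80 and 0.47 on control ovary arrays, 0.29, 0.53 and 0.31 on *Smad4 (Stella)* arrays, -1.17, -1.03 and -1.05 on DKO arrays and -3.24, -3.29 and -2.53 on testis arrays. Control and *Smad4 (Stella)* arrays overlapped for it, and the other groups did not. It fell 3.50-fold in DKO against control ovaries (adjusted p = 0.000143 from limma) and remained 3.83-fold above testes (adjusted p = 3.58e-05 from limma). The *Hormad1* excess over testes was 3.42-fold (adjusted p = 1.58e-05 from limma).

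For *Smad4 (Stella)* against control ovaries 0 of the 8 genes were called by limma, where 0.138% of all genes were called lower. The changes ran from -0.64 (*Sycp3*) to -0.35 (*Hormad2*), with a median of -0.47 against -0.03 over all genes. At an unadjusted p under 0.05 limma gave 5 of 8, namely *Sycp3*, *Syce1*, *Syce2*, *Tex12* and *Hormad1*, against 11.4% of all genes lower at that p. The methods' t-test gave 4 at an unadjusted p and 0 after Benjamini-Hochberg adjustment, where 1928 and 2 of the 18853 genes were lower by the same rules. The arrays of *Sycp3*, *Syce2*, *Tex12* and *Hormad1* did not overlap between the groups, as was the case for 28.1% of all genes in either direction, and exact permutation of 3 arrays against 3 cannot go below p = 0.1. The interval of *Sycp3* reached from -1.04 to -0.25 and that of *Sycp2* from -0.90 to 0.15.

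Without scaling between arrays the median change of the 8 genes was -0.04 while that of all genes was 0.40, and *Sycp2*, *Hormad1* and *Hormad2* turned to 0.053, 0.03 and 0.077. With the slide as a block, in which the 2 groups are linked only through DKO ovary 3 on slide 3 and DKO ovaries 1 and 2 on slide 2, the changes were -1.41 for *Sycp1*, -1.23 for *Sycp3*, -1.19 for *Sycp2* and -1.13 for *Tex12*, with adjusted p-values from limma of 0.125, 0.108, 0.2 and 0.284. Slide and genotype cannot be separated further here.

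Between *Smad4 (Stella)* and DKO ovaries, which differ in *Stra8*, 7 of the 8 genes were called lower in DKO ovaries, all but *Sycp1*, where 4.07% of all genes were called lower. The arrays of the same 7 stood apart, as those of 31.2% of all genes did. The largest falls were those of *Sycp2* (log2 fold change -2.20, adjusted p = 0.000387 from limma) and *Tex12* (-1.98, adjusted p = 0.000717 from limma). *Hormad1*, *Syce1* and *Hormad2* followed with -1.56, -1.52 and -1.46, and the smallest called change was that of *Syce2* (-0.82, adjusted p = 0.00494 from limma). The methods' t-test with Benjamini-Hochberg adjustment called 1 of the 8, *Hormad2*, where it called 88 of all genes lower. With the slide as a block *Syce2* was no longer called (-0.69, adjusted p = 0.0711 from limma). Under normexp correction *Syce2* (-0.97, adjusted p = 0.0549 from limma) and *Sycp2* (-0.94, adjusted p = 0.372 from limma) were not called.

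Within slide 2, where 2 DKO and 2 control ovaries stood side by side, DKO minus control was -1.31 for *Syce2*, the smallest, and -2.94 for *Sycp2*, the largest, so each of the 8 genes was lower there too. Both of these control ovaries were without Cre and both DKO ovaries carried it, so on slide 2 the presence of Cre cannot be told apart from the deletions. Within slide 3 the single DKO ovary differed from the mean of the *Smad4 (Stella)* ovaries by -0.26 for *Sycp1* and by -0.69 to -1.75 for the others. The fit with the slide as a block gives the same values, and in it all 8 genes were called lower in DKO against control ovaries (adjusted p from 0.000211 to 0.0024 from limma). Against *Smad4 (Stella)* ovaries 6 were, all but *Sycp1* (adjusted p = 0.621 from limma) and *Syce2*.

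**Figure D3:**
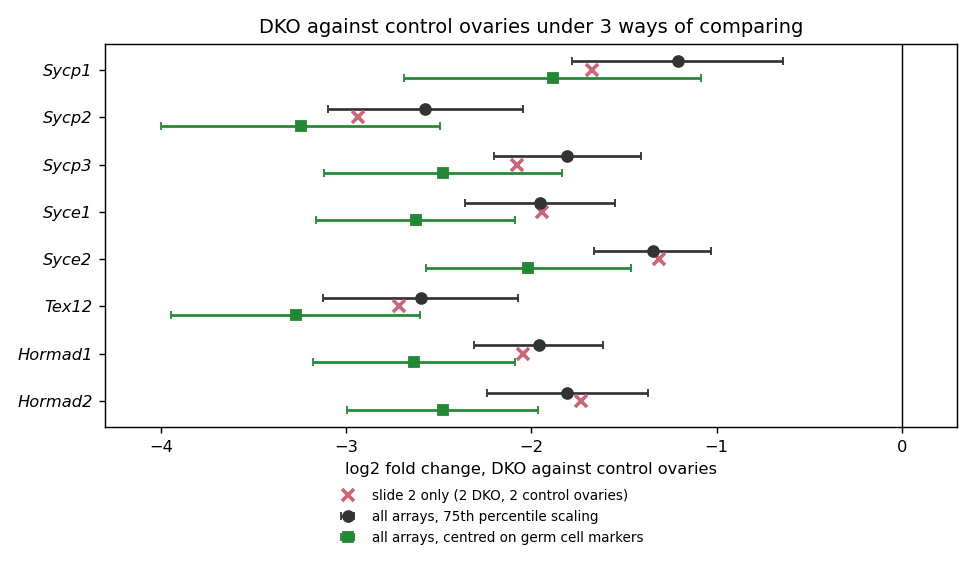
Log2 fold change of the 8 genes in DKO against control ovaries, as fitted over all arrays with 75th percentile scaling (circles, 95% interval), after centring each array on 7 germ cell markers (squares, 95% interval) and as the plain difference of means on slide 2 alone (crosses, no interval). Every value is below 0, and centring on germ cell markers moves the 8 genes down together, as it moves the median of all genes to -0.67.

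Since the study scaled its RT-qPCR to *Mvh* (*Ddx4*), the levels of germ cell markers were set beside these changes. *Ddx4*, a germ cell RNA helicase, was at 5.33, 4.88 and 4.97 in control ovaries and 5.48, 5.04 and 5.09 in DKO ovaries, a difference of 0.14 (95% interval -0.20 to 0.49, adjusted p = 0.561 from limma). *Dazl*, a germ cell RNA-binding protein, differed by -0.08 (95% interval -0.39 to 0.23, adjusted p = 0.736 from limma). Of the 7 markers, *Dnd1*, *Piwil2* and *Tdrd5* were called higher and *Rnf17* and *Stk31* lower in DKO ovaries. The list is not neutral to sex. Against control ovaries, testes were called higher for *Dnd1* (3.61), *Tdrd5* (3.23) and *Piwil2* (0.94), and lower for *Dazl* (-1.62), *Rnf17* (-1.76) and *Stk31* (-0.82). The summed level of the 7, on the linear scale where 1 is the 75th percentile, was 47.7 to 62.1 in control, 40.8 to 47.9 in *Smad4 (Stella)*, 53.6 to 68.6 in DKO ovaries and 36.9 to 48.0 in testes. *Ddx4* had the highest signal of the 7 in every group and weighs most in this sum. Germ cell number, and its part in the changes of the 8 genes, was not tested.

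With each array centred on the mean of these markers, the median of all genes moved to -0.67 in DKO against control ovaries. The 7 markers weigh equally in that mean. It holds the rises of *Dnd1* (2.49), *Tdrd5* (2.49) and *Piwil2* (1.39) beside *Ddx4* (0.14), *Dazl* (-0.08), *Stk31* (-0.67) and *Rnf17* (-1.05). The shift is therefore not a measure of germ cell content. All 8 genes were called lower, from -1.88 (*Sycp1*) to -3.27 (*Tex12*), but 45.8% of all genes were as well. Taken relative to that shift, the changes equal those given before to within rounding. Against *Smad4 (Stella)* ovaries *Sycp1* joined the other 7 genes (-1.40, adjusted p = 0.0148 from limma), where 47.5% of genes were called lower. After that centring DKO ovaries exceeded testes for 6 genes, all but *Sycp2* and *Tex12*, with 5.77% of genes called higher. Before it, 3 of the 7 markers were themselves called higher in DKO ovaries than in testes, and 0 lower. They were *Dazl* (1.54, adjusted p = 1.97e-05 from limma), *Ddx4* (0.71, adjusted p = 0.00482 from limma) and *Rnf17* (0.70, adjusted p = 0.0301 from limma). *Dnd1* (-1.12) and *Tdrd5* (-0.74) lay lower there without being called. Whether DKO ovaries and testes differed in germ cell content was not tested.

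Markers of other cells were read in the same way. Between DKO and control ovaries 0 of 6 pregranulosa, 0 of 6 Sertoli, 0 of 4 fetal Leydig and 0 of 5 endothelial markers were called by limma. Over all genes 7.99% were called lower and 6.69% higher, so a count of 0 in lists this short lies near those shares. At an unadjusted p under 0.05 only *Foxl2*, a pregranulosa marker, passed among these lists (0.42). The summed Sertoli level was 2.08 to 2.89 in DKO and 2.31 to 2.79 in control ovaries, against 52.6 to 59.2 in testes. The embryonic globin gene *Hbb-y*, an erythroid marker, was called lower (-1.15). Of the macrophage and mesonephric lists, *Cd68* (0.72) and *Lhx1* (1.54) were called higher, 1 of 5 each. The summed macrophage level ran from 2.24 to 6.46 in DKO and from 2.13 to 2.84 in control ovaries, and the summed mesonephric level from 1.41 to 1.75 and from 1.30 to 1.53. Their part in the changes of the 8 genes was not tested.

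DKO ovaries exceeded testes in 6 of the 8 genes, where 12.7% of all genes were called higher. The arrays stood apart for 7 of the 8, all but *Tex12*, and for 50.5% of all genes. The excess was 2.60 for *Sycp1*, 1.94 for *Hormad2*, 1.82 for *Sycp3*, 1.77 for *Hormad1*, 1.57 for *Syce1* and 1.02 for *Syce2* on the log2 scale. The measured gap between DKO ovaries and testes differed between the genes. The interval of *Sycp1* (2.03 to 3.17) lay apart from those of *Tex12* (-0.24 to 0.81) and *Sycp2* (0.05 to 1.11). These intervals hold the spread between arrays and not differences in probe response, so they do not show that the RNA of these genes changed by different amounts. DKO ovaries and testes shared no slide, and with the slide as a block they are linked only through the control ovaries. In that fit the *Sycp2* difference turned to -0.065 (adjusted p = 0.912 from limma). With the brightest of its 3 probes alone it was 0.71 and was called (adjusted p = 0.029 from limma).

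The genes that work with the complex were read from 6 lists of 32 genes, of which 28 were measured; *Syce3*, *Rad21l*, *Spata22* and *Meiosin* were not matched to a probe. In DKO against control ovaries 23 of the 28 were called lower and 0 higher by limma, with a median change of -1.93 beside 0.003 over all genes, where 7.99% of all genes were called lower and 6.69% higher. One other, *Trip13*, was higher at an unadjusted p under 0.05. The 4 largest falls were in *Terb1* and *Majin*, which attach telomeres to the nuclear envelope, *Dmc1*, the meiotic strand exchange recombinase, and *Meioc*, needed for the meiotic programme. The log2 fold changes of *Majin*, *Dmc1* and *Meioc* were -4.12, -3.88 and -3.82, with adjusted p-values from limma of 1.73e-05, 9.4e-07 and 0.000105. That of *Terb1* was -5.81 (SE 0.65, adjusted p = 0.000175 from limma), with an SD of 1.49 among DKO arrays, of which 2 were above background.

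By list, 4 of 5 telomere attachment genes, 8 of 9 recombination genes, 5 of 6 genes of HORMAD regulation and break formation, 2 of 3 meiotic cohesin genes, 3 of 3 meiotic entry genes and 1 of 2 other genes of the complex were called lower. One of the meiotic entry genes, and so of the 23, is *Stra8*, the gene deleted in the DKO ovaries. The 5 not called, named here after their values were seen, were *Rec8* (0.13), *Fkbp6* (0.32), *Trip13* (0.46), *Mlh3* (-0.36) and *Sun1* (-0.49). *Rec8*, the meiotic kleisin on which the axis is laid, was thus not changed past the test in DKO ovaries (adjusted p = 0.814 from limma), while the cohesin subunits *Smc1b* and *Stag3* changed by -2.02 and -2.04 (adjusted p = 0.000118 and 0.000233 from limma). In testes *Rec8* was called lower (-3.72, adjusted p = 4.85e-06 from limma). *Trip13*, the ATPase that removes HORMADs from synapsed axes, differed by -0.001 between DKO ovaries and testes.

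In the other comparisons 0 of the 28 were called by limma for *Smad4 (Stella)* against control ovaries (15 were lower at an unadjusted p under 0.05, as were 11.4% of all genes). For DKO against *Smad4 (Stella)* ovaries 19 were called lower, against 4.07% of all genes. For testes against control ovaries 25 were called lower, against 16.8%, and for DKO ovaries against testes 17 were called higher, against 12.7%. The median of the 28 in *Smad4 (Stella)* against control ovaries was -0.50, beside -0.47 for the 8 genes and -0.03 for all genes.

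**Figure D4:**
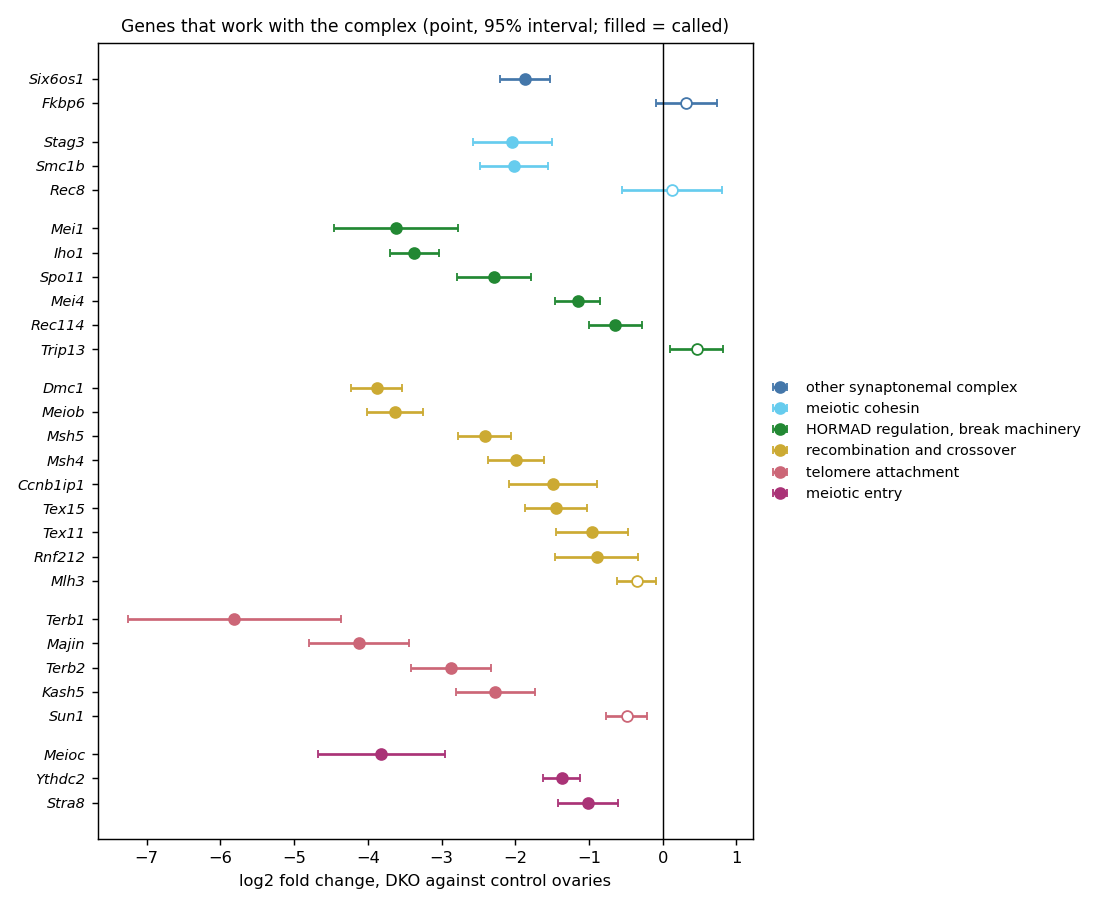
Log2 fold change with its 95% interval in DKO against control ovaries for the 28 measured genes that work with the complex, grouped by list; filled points were called. Of these, 23 are filled, all below 0, and *Fkbp6*, *Rec8*, *Trip13*, *Mlh3* and *Sun1* are open.

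Over the 12 arrays, the 5 genes most like the mean profile of the 8, among 18813 genes measured on every array, were *Meiob* (Pearson's r = 0.996), *Phf16* (0.995), *Msh4* (0.995), *1700052K11Rik* (0.995) and *Tex16* (0.9945). These coefficients describe 12 arrays in 4 groups and follow the group means. *Meiob*, which encodes a single-stranded DNA-binding protein of meiotic recombination, stood at 3.81 ± 0.08, 3.15 ± 0.31, 0.18 ± 0.28 and -2.19 ± 0.04 (SD, n = 3 each) in control, *Smad4 (Stella)* and DKO ovaries and testes. Within the 8, *Hormad1* followed the mean of the other 7 most closely (r = 0.997) and *Tex12* least (r = 0.926).

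Because the 8 genes moved together, the stretches before their RefSeq starts on GRCm38.p6 were searched for 5 motifs on both strands, from 250 bases before to 50 after the start. The E-box CACGTG, bound by basic helix-loop-helix factors, was present at 5 of 8 genes, against 8.09% of the 27025 genes in the table. The E2F site GGCGGGAA was present at 3 of 8, *Syce2*, *Tex12* and *Hormad1*, against 2.52%. CNCCTCAG, a motif known for STRA8, was present at 4 of 8, *Sycp1*, *Syce2*, *Tex12* and *Hormad2*, against 9.12%, and at *Syce2* it overlapped the E2F site. The GC-rich SMAD element GGCGCC was present at *Sycp2* and *Tex12*, against 13.4%, and the CRE TGACGTCA at none of the 8, against 2.03%.

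The 5 genes with an E-box were *Sycp1*, *Sycp3*, *Syce2*, *Tex12* and *Hormad1*, and the 150 bases before their starts are shown with the E-box and the E2F site in capitals. Counted from the start, the E-boxes began at -94 in *Sycp1*, -64 and -43 in *Sycp3*, -88 in *Syce2*, -93 in *Tex12* and -57 and -20 in *Hormad1*. The stretches are chr3:102936101-102936250 on the minus strand, chr10:88459437-88459586 on the plus strand, chr8:84872108-84872257 on the plus strand (the second of 2 starts), chr9:50561269-50561418 on the minus strand and chr3:95559527-95559676 on the plus strand (the first of 2 starts). A match is a description of the letters and not of a bound site.
Sycp1: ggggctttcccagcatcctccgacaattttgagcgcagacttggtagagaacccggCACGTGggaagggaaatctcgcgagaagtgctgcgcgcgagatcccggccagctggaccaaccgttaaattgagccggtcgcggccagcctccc
Sycp3: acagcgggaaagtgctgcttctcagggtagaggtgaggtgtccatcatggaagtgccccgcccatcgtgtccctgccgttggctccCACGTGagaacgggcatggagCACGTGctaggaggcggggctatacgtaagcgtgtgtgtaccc
Syce2: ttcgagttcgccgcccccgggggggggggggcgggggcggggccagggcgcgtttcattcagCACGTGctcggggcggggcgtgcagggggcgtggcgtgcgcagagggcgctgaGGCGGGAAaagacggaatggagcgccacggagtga
Tex12: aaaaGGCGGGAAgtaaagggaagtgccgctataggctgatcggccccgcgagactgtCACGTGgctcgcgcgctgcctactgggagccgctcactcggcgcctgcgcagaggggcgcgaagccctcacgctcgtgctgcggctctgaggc
Hormad1: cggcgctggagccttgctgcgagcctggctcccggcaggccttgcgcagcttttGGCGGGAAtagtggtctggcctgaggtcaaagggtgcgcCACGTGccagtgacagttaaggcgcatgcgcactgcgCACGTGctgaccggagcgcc

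The genes with and without an E-box did not separate by the size of their change. In DKO against control ovaries *Sycp1* and *Syce2*, which have one, had the smallest falls and *Tex12*, which also has one, the largest, while *Sycp2*, *Syce1* and *Hormad2*, which have none in this window, changed by -2.57, -1.95 and -1.81. Of the 28 measured and 4 unmatched genes that work with the complex, 23 had a window in the table, and the E-box was present at 4 of them.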

How the data were processed

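RNA from 12 pairs of E14.5 gonads, 3 per group, had been hybridised to 1-colour Agilent arrays (design annotated on mm9), and groups and replicate numbers follow the sample labels. What the authors deposited for every array is the scanner table of Feature Extraction 11.0.1.1. Its processed intensity is background-subtracted within an array but carries no scaling between arrays. A second deposited table repeats this intensity at 3 significant digits.

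Here the intensity of spots that were neither controls nor outliers was put on the log2 scale and the array's 75th percentile over non-control spots subtracted, which assumes similar upper ranges of expression in all gonads. Spots were averaged into probes and probes into genes. Of 41174 probes, 27323 were above background throughout at least 1 group and were retained. RefSeq accessions named 27050 probes. Promoters came from RefSeq (GRCm38.p6), where all 8 genes matched.

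Fits used limma (version 3.58.1) under R (version 4.3.3), and files were read with the data.table package (version 1.17.8). A single model of the 4 groups covered all arrays, p-values were adjusted by Benjamini-Hochberg, and the calls were tested on simulated data with known changes. Permutation tests were exact and two-sided. Each array is a separate pair of gonads, and 3 arrays per group limit the precision.

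The 8 genes and all lists were chosen with earlier results of these data known. Named besides the 8 were, among the listed partners, the 4 largest called falls and 2 largest called rises in DKO against control ovaries (no rise was called), *Stra8*, any partner called in *Smad4 (Stella)* ovaries (none), the 5 most similar genes, *Ddx4* and *Dazl*. Other genes were named after their values were seen. The erythroid marker list is not reported here in full.

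The alternatives covered scaling (quantile, none as in the deposited table, germ cell markers), normexp correction (offset 50), 1 probe per gene (the brightest), unfiltered probes, calls at any fold, slide or replicate number as a block, fitting only the compared groups, the t-test of the methods, and omission of each array in turn.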

Additional observations from a re-analysis of the deposited data

How the results depend on the processing

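The methods' t-test at an unadjusted p called 4 of the 8 genes lower in *Smad4 (Stella)* against control ovaries, where limma called 0. Over all genes it called 1928 lower there, and limma 26. With Benjamini-Hochberg adjustment it called 1 rather than 7 of the 8 lower in DKO against *Smad4 (Stella)* ovaries, beside 88 rather than 768 of all genes. The cause was not tested. With normexp correction 6 of 8 were called lower in DKO against control and 5 against *Smad4 (Stella)* ovaries, where 471 and 137 of all genes were. Leaving out 1 array at a time gave 8 to 8 members called lower in DKO against control ovaries, 7 to 8 in DKO against *Smad4 (Stella)* ovaries (8 without DKO ovary 3), 0 to 0 in *Smad4 (Stella)* against control ovaries, 8 to 8 in testes against control ovaries, and 6 to 6 called higher in DKO ovaries against testes. Single values turned sign in 4 cases, none of them called: *Sycp2* in DKO ovaries against testes with the slide as a block (-0.065), and *Hormad1*, *Hormad2* and *Sycp2* in *Smad4 (Stella)* against control ovaries without scaling (0.03, 0.077 and 0.053). Replicate numbers were taken only as names of the samples. Deviations correlated between -0.18 and 0.15 for same-numbered arrays and between -0.17 and 0.14 for differently numbered ones. With 3 arrays per group this cannot decide whether the numbers mark a pairing. With the replicate block the counts were again 8, 7, 0, 8 and 6.

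Over all genes, the counts moved by over 1.5 times in several settings. In DKO against control ovaries 1506 were called lower, and 8632 with germ cell centring, 449 without scaling, 471 with normexp correction, 877 and 2415 under the methods' t-test with and without adjustment. For DKO against *Smad4 (Stella)* ovaries, 768 became 8961, 413, 137, 88 and 1964 in that order. For testes against control ovaries, 3164 became 5744, 1751 and 1297 under the first 3 of these. Genes called higher in DKO ovaries against testes numbered 2394, and 1087, 1397 and 826 under those 3 and 3793 under the unadjusted t-test. In *Smad4 (Stella)* against control ovaries 26 were called lower, and between 0 (normexp) and 17 (quantile normalization, brightest probe) under the other limma settings with the fold threshold, 2 under the adjusted and 1928 under the unadjusted t-test, and from 0 (without *Smad4 (Stella)* ovary 3) to 135 (without DKO ovary 1) when 1 array was left out. Scaling moved the balance of directions. Beside those called lower, the genes called higher in DKO against control ovaries numbered 1261, or 383 with germ cell centring, and in DKO against *Smad4 (Stella)* ovaries 827, or 254 with that centring, 112 without scaling and 85 with normexp. For testes against control ovaries they numbered 3239, or 1386 with germ cell centring. For *Smad4 (Stella)* against control ovaries they numbered 25, or 49 after quantile normalization, 16 with germ cell centring and 12 without scaling. Genes called lower in DKO ovaries against testes numbered 2457, or 2910 with germ cell centring. Normexp correction moved the median of all genes to 0.26 in DKO against control ovaries and to 0.28 against *Smad4 (Stella)* ovaries.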
